A study of Mus musculus with 6 samples.

Results

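The mRNA levels of 8 genes whose proteins act in class switch recombination were followed in the 6 RNA-seq libraries. They were chosen by the role of the protein: Ung, Apex1 and Apex2 of base excision, Msh6 and Exo1 of mismatch repair, and Trp53bp1, Rif1 and Mad2l2 of DNA end protection. All 8 were found among the 46959 gene names of the count table. The libraries came from CD43-depleted splenic B-cells of 3 genotypes (wt, Eμ-deficient, 3′RR-deficient), each giving 1 library of resting cells and 1 of cells stimulated for 2 days with 5 μg per ml LPS. The mice had a 129 background and were 8 to 12 weeks old, of both sexes. Eμ is the intronic enhancer at one end of the IgH constant gene cluster, and the mice lacking it are called EμMAR-deficient in the study's methods, whereas 3′RR is the regulatory region at the other end of the cluster. Per the labels each library was a pool of cells from 2 mice, and the count table has 1 library per genotype and state. The study's methods instead describe 4 mice and 2 RNA pools per genotype, and a legend 3 mice, so that the number of mice behind a library is uncertain. The labels have the resting cells kept in medium without LPS for the same 2 days, while the methods describe cells taken before stimulation.

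Class switch recombination exchanges the constant region of the antibody heavy chain by joining breaks in switch regions. The process starts from uracil formed in place of cytosine in these regions. The uracil DNA glycosylase UNG removes the uracil, and an apurinic endonuclease (APE1, encoded by Apex1, or APE2, encoded by Apex2) cuts the strand at the base-free site. Mismatch repair acts beside this route, with MSH6 recognising U:G mispairs and the exonuclease EXO1 digesting the marked strand. 53BP1, encoded by Trp53bp1, and its effectors RIF1 and REV7, encoded by Mad2l2, shield the broken ends from resection so that they can be joined.

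The libraries held from 9111889 to 21997928 gene counts, the 3′RR-deficient LPS library being the shallowest and the wt LPS library the deepest. The log2 ratios of 35 spike-in RNAs spread most between the 3′RR-deficient and wt LPS libraries, with an SD of 1.27. In the same pair the gene ratios followed transcript GC content, with a median log2 ratio of -0.86 among the 10% of genes poorest in GC and of 0.79 among the 10% richest. The B-cell markers Ms4a1, Cd79a and Cd79b were read at 260 to 583, 237 to 585 and 198 to 396 CPM (counts relative to the TMM-scaled library size) over the libraries. The 6 T-cell markers summed to at most 32.5 CPM and the 6 myeloid markers to at most 361 CPM, both highest in the Eμ-deficient resting library, and in the wt LPS library 2 T-cell, 1 myeloid and 1 erythroid marker had no count. The 6 erythroid markers summed to 3350 CPM in wt, 20100 CPM in Eμ-deficient and 3860 CPM in 3′RR-deficient resting cells and to 52.9, 670 and 133 CPM after LPS. All 6 T-cell, 6 myeloid and 6 erythroid markers fell with LPS and the B-cell marker Cd22 did so too, while 2 of 4 measured plasma cell markers rose. These markers therefore moved with the LPS contrast, and their part in the results below was not tested. In bulk samples fewer cells of a type and less RNA per cell cannot be told apart.

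Promoter sequences (250 bases before to 50 bases after the transcription start, RefSeq, GRCm38.p6) were at hand for 5 of the 8 genes: Ung, Apex1, Msh6, Trp53bp1 and Mad2l2. Apex2, Exo1 and Rif1 were not matched. Of these, 3 are shown because their mRNAs differed in the response to LPS described below: a strong increase for Apex1, a smaller one for Msh6, and for Trp53bp1 a log2 fold change of -0.52 that did not pass the test (edgeR adjusted p = 0.0938). They lie at chr14:50924699-50924998 on the plus strand (Apex1), chr17:87974800-87975099 on the plus strand (Msh6) and chr2:121271358-121271657 on the minus strand (Trp53bp1). Sequences are written 5′ to 3′ along the gene, and capitals mark the letters of the motifs searched on both strands.
Apex1: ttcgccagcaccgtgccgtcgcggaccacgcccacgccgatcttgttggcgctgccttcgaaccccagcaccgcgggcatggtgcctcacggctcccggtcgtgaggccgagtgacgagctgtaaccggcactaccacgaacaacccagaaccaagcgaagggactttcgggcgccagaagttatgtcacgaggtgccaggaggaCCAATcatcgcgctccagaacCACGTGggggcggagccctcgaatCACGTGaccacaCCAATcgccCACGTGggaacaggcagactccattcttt
Msh6: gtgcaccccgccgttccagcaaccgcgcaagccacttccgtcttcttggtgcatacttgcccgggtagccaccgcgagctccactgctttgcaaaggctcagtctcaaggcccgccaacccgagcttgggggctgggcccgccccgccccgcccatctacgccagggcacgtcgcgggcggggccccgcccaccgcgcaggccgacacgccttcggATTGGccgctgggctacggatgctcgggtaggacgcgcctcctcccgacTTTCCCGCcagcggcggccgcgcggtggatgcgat
Trp53bp1: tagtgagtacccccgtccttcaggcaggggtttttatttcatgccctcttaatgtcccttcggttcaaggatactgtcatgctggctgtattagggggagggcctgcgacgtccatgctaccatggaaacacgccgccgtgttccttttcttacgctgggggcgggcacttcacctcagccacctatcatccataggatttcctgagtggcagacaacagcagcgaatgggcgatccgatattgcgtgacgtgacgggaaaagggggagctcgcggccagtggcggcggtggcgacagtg
The Apex1 window held CACGTG, the E-box letters, at 3 places, and CCAAT, the NF-Y letters, at 2 places. CACGTG was present in 7.15% of 32851 promoter windows, and 0.0883% of them (29) held it 3 or more times. The Msh6 window held TTTCCCGC, one of the E2F spellings searched (TTTCCCGC, TTTGGCGC, TTTCGCGC), which together occurred in 1.84% of windows. It also held CCAAT on the opposite strand (ATTGG), as did the second of 2 Mad2l2 windows, against 37.4% of all windows. The letters TTTGAA, called CHR and found in 17.9% of windows, were in none of the windows of these genes, and Ung, Trp53bp1 and the first Mad2l2 window held none of the motifs searched. The motifs were chosen after the sequences were seen, and a match of letters is a description only.

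The effect of LPS was estimated over the 3 genotypes, with genotype as a term of the model, so that each genotype compared its own LPS and resting libraries. Of the 8 genes, 6 rose (Exo1, Apex1, Ung, Mad2l2, Rif1 and Msh6) and none was called lower (edgeR quasi-likelihood test, adjusted p below 0.05), while 19.7% of the 14599 genes tested were called higher and 21.1% lower. The median log2 fold change was 1.14 over the 8 genes and -0.07 over all genes tested. Without the 3′RR-deficient LPS library 5 of the 8 were called, with a median of 1.23, and 4911 genes were called in all. Scaling by the spike-in RNAs left 2 of the 8, Apex1 and Exo1, with 4356 of the 14599 genes called. Beside that share a count of 2 is no result about these 8 genes. For 7 of the 8 genes each of the 3 LPS libraries lay above each of the 3 resting libraries, as for 25.0% of all genes. Trp53bp1 alone of the 8 had all its LPS libraries below the resting ones, as 27.3% of all genes did. The plot of CPM by library shows these levels.

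**Figure D1:**
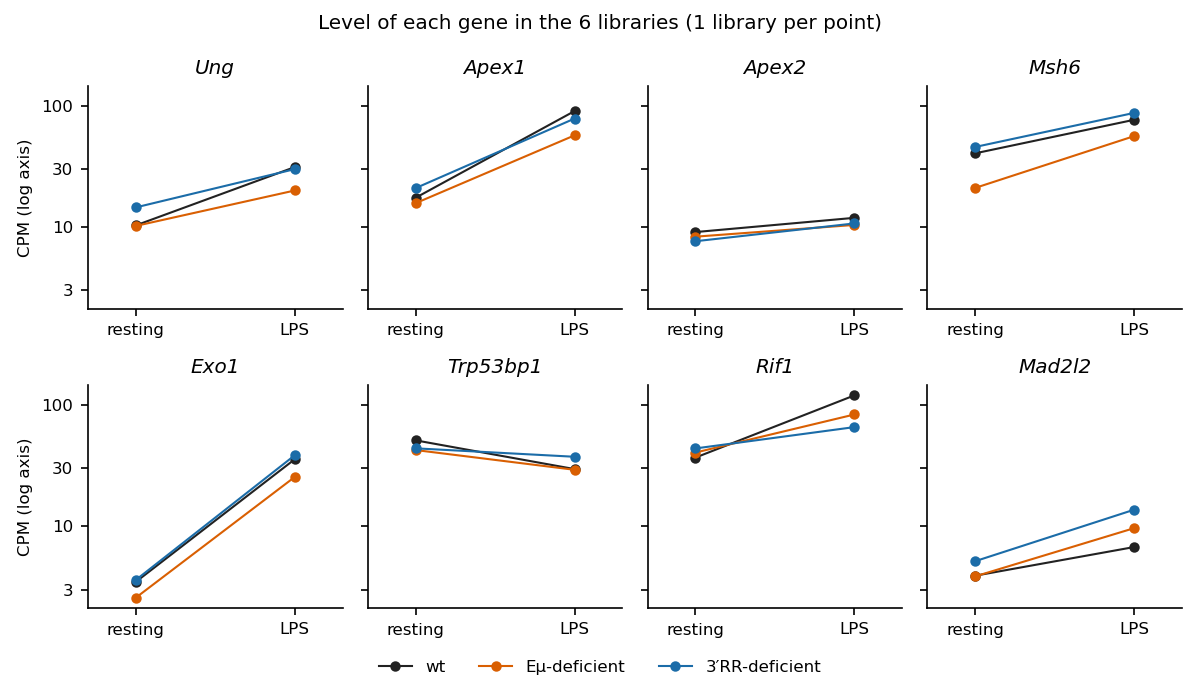
Level of each of the 8 genes in CPM (log axis) in resting and LPS-stimulated B-cells, 1 point per library, with a line joining the libraries of a genotype. Exo1 climbed from between 2.57 and 3.6 CPM to between 25.5 and 38.5 CPM, whereas Trp53bp1 lay lower after LPS in each genotype.

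Of the base excision genes, Ung (chr5:114130386-114139323, plus strand, 6 exons) was read at 10.3, 10.2 and 14.5 CPM in wt, Eμ-deficient and 3′RR-deficient resting B-cells and at 31.2, 20 and 30 CPM after LPS. The lowest LPS value was thus above the highest resting value. Ung rose by 1.21 ± 0.25 (log2 fold change ± SE, 6 libraries) with an edgeR adjusted p of 0.00462. Apex1 (chr14:50924968-50927139, plus strand, 5 exons) had 17.4, 15.7 and 20.9 CPM in resting cells and 90.4, 57 and 78.4 CPM after LPS in the same order of genotypes. It showed the second largest increase of the 8 genes, 2.05 ± 0.24, with an edgeR adjusted p of 0.000304. Apex2 (chrX:150519519-150589868, minus strand, 7 exons), its paralog, had 9.08, 8.32 and 7.63 CPM in resting cells and 11.9, 10.4 and 10.7 CPM after LPS. All 3 LPS values were the higher ones, but by a log2 fold change of 0.40 ± 0.25 that did not pass the test (edgeR adjusted p = 0.235).

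Of the mismatch repair genes, Msh6 (chr17:87975062-87990892, plus strand, 10 exons) was at 40.5, 21 and 45.7 CPM in wt, Eμ-deficient and 3′RR-deficient resting cells and at 76.6, 56.2 and 87.3 CPM after LPS. The Eμ-deficient library was the lowest of its state both times, and the groups of 3 did not overlap. Msh6 rose by 1.09 ± 0.23 with an edgeR adjusted p of 0.00546, and without the pair of Eμ-deficient libraries this p was 0.0693. Exo1 (chr1:175880581-175913489, plus strand, 15 exons) had 63, 34 and 74 counts in the resting libraries, which is 3.47, 2.57 and 3.6 CPM, and 35.7, 25.5 and 38.5 CPM after LPS. Its increase of 3.36 ± 0.25, with an edgeR adjusted p of 6.81e-05, was the largest of the 8 genes. Within wt, Eμ-deficient and 3′RR-deficient B-cells the LPS level of Exo1 was 10.3-fold, 9.9-fold and 10.7-fold that of resting cells.

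The end protection genes did not move together. Trp53bp1 (chr2:121193281-121271407, minus strand, 28 exons) had 51.1, 42.5 and 43.9 CPM in resting cells and 29.6, 29.2 and 37.4 CPM after LPS. Its log2 fold change of -0.52 ± 0.23 did not pass the test (edgeR adjusted p = 0.0938), but it did when the trend of ratios with GC content was taken out (-0.69, adjusted p = 0.0111). That setting called 7488 of the 14599 genes for LPS, against 5961 in the main fit. Rif1 (chr2:52072832-52122383, plus strand, 36 exons) had 36.8, 40.5 and 43.8 CPM in resting cells and 120, 83.5 and 65.7 CPM after LPS. The resting values were close to one another, while the LPS values spread with wt highest and 3′RR-deficient lowest. Rif1 rose by 1.11 ± 0.27 with an edgeR adjusted p of 0.0103. Mad2l2 (chr4:148130384-148145699, plus strand, 8 exons), the least abundant of these 3 in CPM, had 3.91, 3.86 and 5.15 CPM in resting cells and 6.74, 9.65 and 13.7 CPM after LPS. It rose by 1.17 ± 0.29 with an edgeR adjusted p of 0.0111, from 51 to 106 counts in the resting libraries and 103 to 141 counts after LPS. This call was the least stable of the 6: the adjusted p was 0.0549 without the Eμ-deficient libraries, 0.0686 without the 3′RR-deficient libraries and 0.0615 without the 3′RR-deficient LPS library alone.

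The LPS response was also taken within each genotype as the log2 ratio of CPM of its 2 libraries, with an exact binomial 95% interval that covers counting error only. No test compares these ratios between genotypes, since each rests on 1 library per state. The 35 spike-in RNAs, centred on their own median, ranged from -0.69 to 2.28 in wt. They ranged from -0.24 to 0.29 in Eμ-deficient and from -1.52 to 1.01 in 3′RR-deficient cells. Inside these ranges lay 5, 0 and 4 of the 8 gene ratios, which were not centred in this way. Median ratios of the genes poorest and richest in GC were 0.6 and -0.59 in wt, -0.07 and 0.13 in Eμ-deficient and -0.43 and 0.23 in 3′RR-deficient cells. Exo1 gave 3.36 (2.99 to 3.76) in wt, 3.31 (2.79 to 3.87) in Eμ-deficient and 3.42 (3.06 to 3.8) in 3′RR-deficient cells, 3 values well inside each other's intervals. Apex1 gave 2.38, 1.86 and 1.91 and Ung 1.59, 0.97 and 1.05 in the same order, with wt highest for both. Spike-in scaling turned this order, with wt lowest for both (Apex1 1.59, 2.03 and 1.91, Ung 0.8, 1.14 and 1.05). Msh6 gave 0.92 and 0.93 in wt and 3′RR-deficient cells and 1.42 (1.21 to 1.63) in Eμ-deficient cells. Rif1 differed most between genotypes, from 1.70 (1.58 to 1.83) in wt through 1.04 in Eμ-deficient to 0.58 (0.43 to 0.74) in 3′RR-deficient cells, and Mad2l2 ran the other way with 0.79, 1.32 and 1.41. By spike-in scaling Rif1 gave 0.91, 1.21 and 0.58 and Mad2l2 -0.01, 1.49 and 1.41. The transcript of Rif1 has the lowest GC content of the 8 (39.33%) and that of Mad2l2 the highest (57.92%). With the GC trend of each pair of libraries taken out, Rif1 gave 1.08, 1.02 and 0.96 and Mad2l2 1.34, 1.17 and 1.12, while the values of Ung moved further apart, to 2.11, 0.81 and 0.76. Trp53bp1 was below 0 in each genotype, at -0.79, -0.54 and -0.23, and Apex2 stayed between 0.32 and 0.48.

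**Figure D2:**
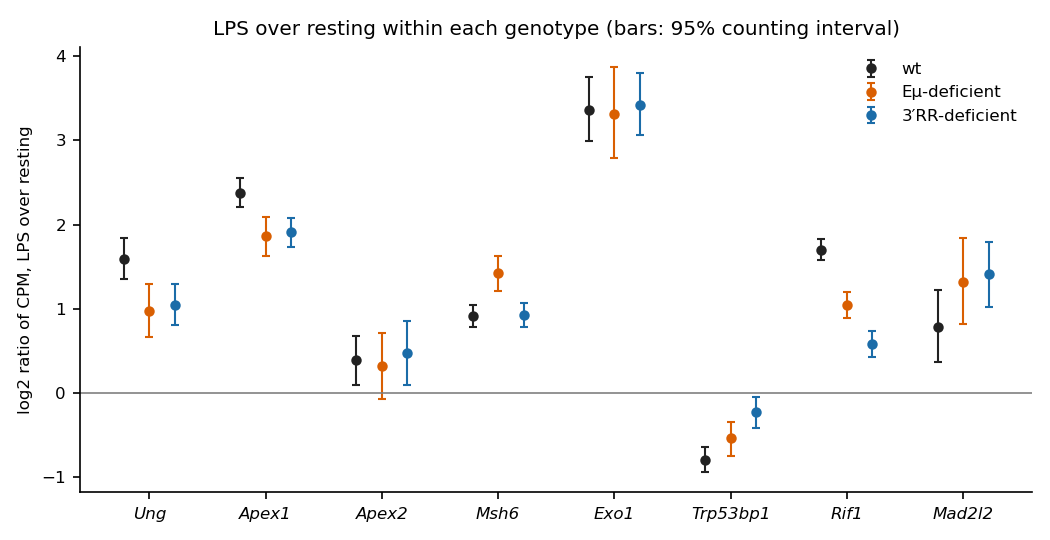
Log2 ratio of CPM, LPS over resting, for each gene within wt, Eμ-deficient and 3′RR-deficient B-cells. Points are single pairs of libraries and bars are 95% counting intervals. Exo1 lies between 3.31 and 3.42, while the Rif1 intervals do not touch each other. The bars leave out the spread of the spike-in RNAs, which ran from -0.69 to 2.28 in the wt pair.

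Levels of different genes were compared per length, as CPM per kb of the longest coding transcript. Counts were by gene name, so the order below and the ratios per length depend on this choice of transcript. Other lengths were not tested. In resting cells Apex1 stood first with a median of 14 CPM per kb (12.7 to 16.9 over the 3 libraries), above all others. Msh6 (9.53), Ung (4.84), Rif1 (4.76) and Trp53bp1 (4.57) followed, each overlapping the next in its range over libraries. Mad2l2 (2.54), Apex2 (1.76) and Exo1 (0.445) came last, and each of these was separated from its neighbours. After LPS Apex1 (63.3) again stood apart from the next gene. Msh6 (18), Ung (14), Rif1 (9.81), Mad2l2 (6.29), Exo1 (4.57) and Trp53bp1 (3.08) overlapped from one to the next, and Apex2 (2.25) was now the last. Exo1 thus left the last place and Trp53bp1 dropped from the fifth to the seventh.

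Ratios of 2 genes within the same library do not depend on how libraries are scaled, and 3 pairs were taken after the levels had been seen. Per length, Apex1 mRNA was 7.33, 7.24 and 10.5 times that of Apex2 in wt, Eμ-deficient and 3′RR-deficient resting cells and 29.1, 21 and 28.1 times after LPS. Exo1 stood to Msh6 at 0.0467, 0.0667 and 0.0429 before and at 0.254, 0.247 and 0.241 after LPS. Rif1 stood to Trp53bp1 at 0.814, 1.08 and 1.13 before and at 4.58, 3.23 and 1.99 after LPS. Such ratios still carry the GC trend of a library, and these 2 transcripts have 39.33% (Rif1) and 48.04% (Trp53bp1) GC. With the trend taken out, the 3′RR-deficient over wt log2 ratio after LPS went from -0.87 to 0 for Rif1 and from 0.34 to 0.36 for Trp53bp1. Each of the 3 within-library ratios was higher in every LPS library than in any resting one, by 1.65, 2.27 and 1.63 on the mean log2 scale. Since the pairs were picked for their levels, this is a description with no test.

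The 3′RR-deficient B-cells were compared with wt over both states in the same model. None of the 8 genes was called, against 0.678% of all genes tested (99 genes), and none had an unadjusted p below 0.05, against 831 of the 14599 genes tested. Beside such shares a count of 0 is no result about these 8 genes. The log2 fold changes of the 8 genes ranged from -0.31 ± 0.33 for Rif1 to 0.71 ± 0.35 for Mad2l2, with a median of 0.07 against 0.04 over all genes. By state, with 1 library per genotype and no test, the resting ratios lay between -0.25 for Apex2 and 0.49 (0.22 to 0.76) for Ung. The spike-in RNAs, centred on their own median, ranged from -0.21 to 0.37, with 4 of the 8 ratios inside this range and Ung, Apex2, Trp53bp1 and Mad2l2 outside it. The gene ratios were scaled by TMM and not centred in this way. A spike-in range therefore gives a spread and not a position. By spike-in scaling Ung was at 0.24, Mad2l2 at 0.15, Apex2 at -0.49 and Trp53bp1 at -0.46 in this pair. After LPS Rif1 was at 65.7 CPM in 3′RR-deficient and 120 CPM in wt cells, a log2 ratio of -0.87 (-1 to -0.74). Mad2l2 was at 13.7 and 6.74 CPM, a ratio of 1.02 (0.66 to 1.38). The other 6 genes lay between -0.21 for Apex1 and 0.34 for Trp53bp1. The spike-in RNAs of this pair, centred likewise, ranged from -3.37 to 1.4, and all 8 ratios lay within this range. By spike-in scaling Mad2l2 was at 1.57, above it.

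The trend of these LPS ratios with transcript GC content spanned all genes, as the plot of ratio against GC content shows. Genes in the bins next to Rif1, at 38.25% and 40.46% GC, had median ratios of -0.97 and -0.77. Genes in the bins next to Mad2l2, at 56.98% and 58.34% GC, had medians of 0.72 and 0.78. With the trend taken out, the log2 ratio was 0 for Rif1 and 0.29 for Mad2l2. Ung, at 57.4% GC, and Apex1, at 51.33% GC, lay under the middle 50% of genes of like GC content, and their ratios went from -0.06 to -0.77 and from -0.21 to -0.48 when the trend was taken out. Msh6 (0.14), Exo1 (0.27), Trp53bp1 (0.36) and Apex2 (-0.13) stayed near their first values. Trp53bp1, at 48.04% GC, lay just above the middle 50% of genes of like GC content.

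**Figure D3:**
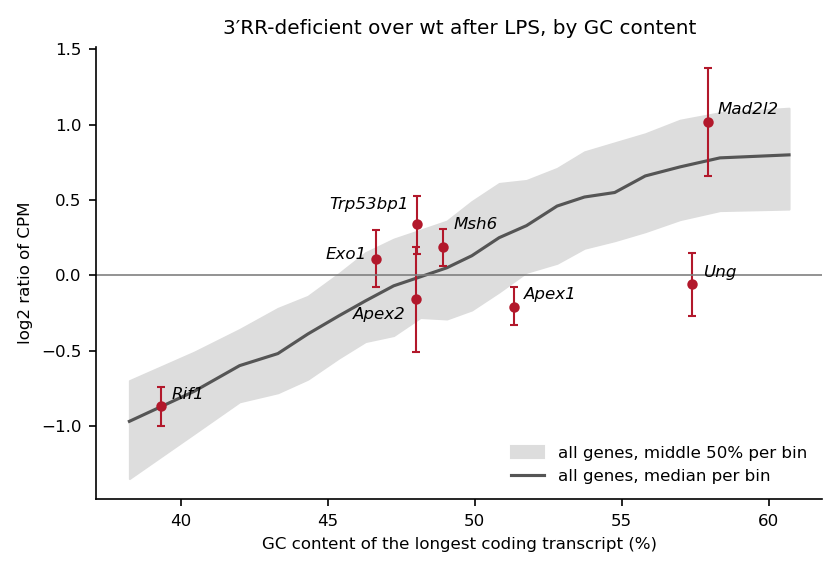
Log2 ratio of CPM, 3′RR-deficient over wt LPS-stimulated B-cells, against the GC content of the longest coding transcript. The line and band are the median and middle 50% of all genes in 20 bins, and points are the 8 genes with 95% counting intervals. Rif1 lies on the trend, and Mad2l2 lies above the median within the band. Ung and Apex1 lie below the band and Trp53bp1 just above it.

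Eμ-deficient B-cells were likewise compared with wt over both states, with the same wt libraries. None of the 8 genes was called, against 1.16% of all genes tested (170 genes), so that here too a count of 0 is no result about them. Msh6 had the lowest log2 fold change, -0.69 ± 0.28, with an unadjusted p of 0.0359 and an edgeR adjusted p of 0.493, and it was the only one of the 8 under 0.05 before adjustment, as were 1266 of all genes. The 8 genes had a median of -0.28 against -0.01 over all genes. In resting cells Msh6 had 278 counts in the Eμ-deficient and 736 in the wt library, 21 and 40.5 CPM, a ratio of 0.519 in linear terms and -0.94 (-1.15 to -0.74) on the log2 scale. This was the one of the 8 resting ratios outside the median-centred spike-in range of -0.47 to 1.3, and it was -0.87 with the GC trend taken out. The other 7 resting ratios lay between -0.43 for Exo1 and 0.14 for Rif1, but taking out the GC trend moved Ung and Mad2l2 from -0.02 to 0.47 and 0.49 and turned Rif1 to -0.24. By spike-in scaling the 8 resting ratios ran from -1.76 for Msh6 to -0.67 for Rif1, all below that spike-in range. After LPS Apex1 (-0.66), Ung (-0.64), Rif1 (-0.52), Exo1 (-0.49) and Msh6 (-0.45) had intervals below 0 and Mad2l2 (0.52) one above 0. These ratios all lay within the median-centred spike-in range of -1.18 to 0.57, but by spike-in scaling Mad2l2 was at 0.67, above it. Apex2 (-0.20) and Trp53bp1 (-0.02) had intervals that included 0. The erythroid markers, given above, were higher in the Eμ-deficient library in both states, and all 6 were called higher than in wt.

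**Figure D4:**
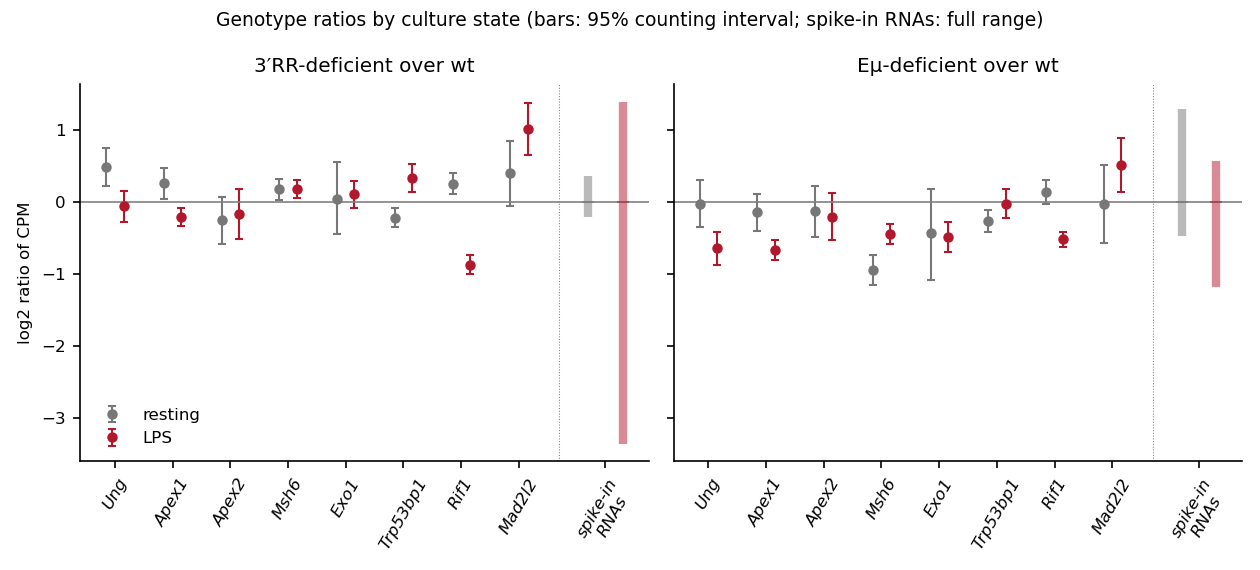
Log2 ratio of CPM of 3′RR-deficient (left) and Eμ-deficient (right) over wt for each gene, in resting and LPS-stimulated B-cells, with 95% counting intervals. The thick bars at the right of each panel give the full range of 35 spike-in RNAs in the same pair of libraries, widest (-3.37 to 1.4) for 3′RR-deficient over wt after LPS. The spike-in ratios were centred on their own median, and the gene ratios were not.

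Transcripts of the opposite strand overlap exons of 4 of the 8 genes: Tmem55b with Apex1 (877 nt), Alas2 and Pfkfb1 with Apex2 (311 and 123 nt), Fbxo11 with Msh6 (34 nt) and Tubgcp4 with Trp53bp1 (2130 nt). The counts were of the annotated strand, since over 45 other opposite-strand pairs the inner gene was read at a median of 0.293% of the level of the outer one. Alas2, the erythroid heme synthesis enzyme, had 1238, 3572 and 1204 counts in wt, Eμ-deficient and 3′RR-deficient resting libraries and 10, 85 and 12 after LPS. Apex2 had 165, 110 and 157 counts before and 249, 111 and 95 after LPS. These are raw counts of libraries of unequal depth, and a part of Alas2 reads in the Apex2 counts was not tested.

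For each gene the most similar profiles over the 6 libraries were sought as the smallest Euclidean distance of centred log2 CPM. Since the neighbours were picked by these same values, their shared levels and fold changes follow from the choice. Exo1 was closest to Gins2 (0.27), of the replicative helicase, Dut (0.30), the dUTPase that keeps uracil out of DNA, and Kif20a (0.32), a mitotic kinesin. These 3 had LPS log2 fold changes of 3.32, 3.36 and 3.43. Apex1 was closest to Pdap1 (0.11), Eif1ax (0.18), a translation initiation factor, and Fam136a (0.19). Ung was closest to Rbmx2 (0.21), Cirh1a (0.27) and Xkr8 (0.32), and Apex2 to Ptpmt1 (0.07), Ythdf2 (0.1) and Ndufaf5 (0.11). Near Msh6 were Ccdc85b (0.27) and Efnb3 (0.29), which shared its low Eμ-deficient resting level (Ccdc85b at 6.22, 3.03 and 5.88 CPM in the wt, Eμ-deficient and 3′RR-deficient resting libraries). Efnb3 was scarce, at 0.378 to 1.68 CPM over the 6 libraries. Trp53bp1 was closest to Rap1gds1 (0.12), Rad51d (0.15) and Ubac2 (0.16). Rif1 was closest to Trnt1 (0.17), Rbm8a (0.18) and Nup155 (0.18), and Mad2l2 to Gm6169 (0.22), Ndufv1 (0.28) and Grhpr (0.33).

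The other genes of the pathway were taken from lists of 65 names by role, of which 62 were in the table and 61 were tested. LPS raised 30 of them and lowered 3, and 28 were not called, with a median log2 fold change of 0.65. Over all genes tested 19.7% were called higher and 21.1% lower, with a median of -0.07. Among base excision partners 6 of 12 rose, with Lig1 (2.81 ± 0.23), a DNA ligase, and Fen1 (2.30 ± 0.23), a flap endonuclease, among the highest, and Hmces fell. Among mismatch partners 8 of 12 rose, led by the single-strand DNA binding subunits Rpa3 (2.18 ± 0.36) and Rpa2 (1.81 ± 0.22) and by Polh (1.58 ± 0.24), the error-prone polymerase η. Among end protection partners 6 of 11 rose, led by H2afx (3.58 ± 0.34), the histone phosphorylated beside breaks, and Dynll1 (1.4 ± 0.23). Of the end resection genes, whose products act against end protection, 5 of 8 rose, with Bard1 (2.72 ± 0.26) and the helicase Blm (1.92 ± 0.26) among the highest. End joining stood lower, with a median of 0.26. Xrcc6 (1.47 ± 0.25), which encodes Ku70, and Lig4 (1.43 ± 0.27) rose, Dclre1c fell and the other 6 of 9 were not called. Of 9 genes listed for switch region targeting Ddx1 (1.70 ± 0.23), Exosc3 (1.23 ± 0.23) and Trim28 (1.04 ± 0.29) rose, Ptbp2 fell and 5 were not called. None of these 61 genes was called between 3′RR-deficient and wt or between Eμ-deficient and wt B-cells, where 0.678% and 1.16% of all genes were, so that a count of 0 is no result about these genes.

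All 13 cell cycle markers, such as the replicative helicase subunits Mcm2 to Mcm7 and Mki67, rose with a median of 2.81, and their sum went from 314, 427 and 412 CPM in wt, Eμ-deficient and 3′RR-deficient resting cells to 2730, 2470 and 3110 CPM after LPS. Of the 8 genes only Exo1 had an LPS log2 fold change above that median. The part of the cell cycle in the rise of the 6 genes was not tested.

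**Figure D5:**
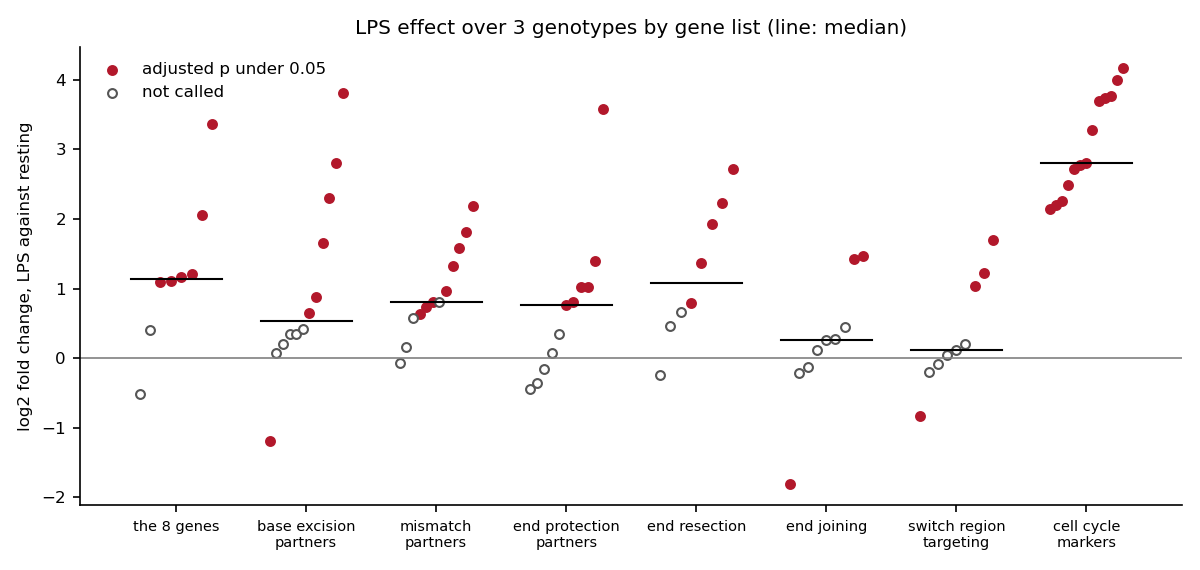
LPS log2 fold change over 3 genotypes of the 8 genes, of the 6 lists of pathway partners and of cell cycle markers, 1 point per gene, filled where the edgeR adjusted p was under 0.05, with a line at the median. The medians run from 0.12 for switch region targeting genes to 2.81 for cell cycle markers, with 1.14 for the 8 genes.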

How the data were processed

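The values deposited by the authors are raw counts for each gene name. Stranded libraries were prepared from rRNA-depleted total RNA, and paired reads were mapped to mm10 with STAR 2.4.0a and counted against Ensembl release 77 with featureCounts (Subread 1.4.6-p1), multi-mapping reads included, so that near-identical copies can share reads. Of 47055 names, 96 spike-in and control rows took 4.75% to 7.1% of the counts and were left out. Library sizes were scaled by TMM (edgeR 4.0.16, R 4.3.3). Genes reaching 10 counts in 2 or more libraries were tested by the quasi-likelihood test with terms for genotype and state over all 6 libraries (2 residual degrees of freedom), p-values being adjusted by Benjamini-Hochberg over all of them at a threshold of 0.05. The residual is the departure from additivity and not the spread between mice. Intervals of ratios of single libraries cover counting error only. The GC trend was a lowess curve with a span of 0.3. Positions, lengths and GC content come from GENCODE M21 (GRCm38), which matched 44131 names and 789 more through an older name. The script was tested on simulated data. The rule for named genes took the 8 genes, at most 3 called genes per list and direction with the largest fold change, 3 nearest profiles per gene and overlapping genes. The 8 genes and the lists were chosen with earlier results of these data known. Levels of a few listed genes are not reported here. The alternatives were total count, DESeq2 and spike-in scaling, scaling without immunoglobulin genes, removal of the GC trend, the DESeq2 Wald test (1.42.0), other filters, no genotype term, each genotype left out and only the genotypes compared. Leaving out the 3′RR-deficient LPS library was added after the data were seen.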

Additional observations from a re-analysis of the deposited data

Results flagged for a closer look

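For 3 genes the 3′RR-deficient to wt ratio had opposite signs in resting and LPS-stimulated cells, with intervals on either side of 0. Each difference rests on 1 library per genotype and state and was not tested. The intervals cover counting error only, and the share of all genes meeting this rule was not counted. The log2 ratio after LPS minus that in resting cells was -0.48 for Apex1, 0.56 for Trp53bp1 and -1.12 for Rif1. The trend of this ratio with GC content turned between the states. Median log2 ratios among the genes poorest and richest in GC were 0.17 and -0.09 in resting cells and -0.86 and 0.79 after LPS. With the GC trend taken out Rif1 was at 0.11 in resting cells and 0 after LPS, Apex1 at 0.33 and -0.48, and Trp53bp1 at -0.21 and 0.36. By spike-in scaling Apex1 was at 0.02 and 0.34, and its signs were no longer opposite.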

How the results depend on the processing

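Apex1 and Exo1 were called higher after LPS under every alternative that tested them (Exo1 did not reach the stricter filter of 50 counts), and no alternative called any of the 8 genes between genotypes. Leaving out a genotype gave 3958 (without Eμ-deficient) to 6660 genes called for LPS, and 4 to 6 of the 8 genes. Spike-in scaling called 4356 genes for LPS and 2 of the 8, with edgeR adjusted p of 0.0745 for Ung, 0.133 for Msh6, 0.116 for Rif1 and 0.102 for Mad2l2. It brought the share of called genes that were higher to 33.4%. This scaling also called 170 genes for 3′RR-deficient cells and gave a median of -0.59 of the 8 genes in Eμ-deficient cells. It moved the median of all genes by -0.79 in the wt LPS to resting ratio and by -0.81 in the Eμ-deficient to wt resting ratio. Trp53bp1 was called lower with the GC trend removed, where 7488 genes were called for LPS, and under the stricter filter (edgeR adjusted p = 0.0375). Genes called for 3′RR-deficient and Eμ-deficient cells were 178 and 340 by the DESeq2 Wald test, 338 and 603 with no filter, 2 and 56 under the stricter filter (3748 for LPS), and 177 and 393 with only the genotypes compared. Signs turned for uncalled values near 0 over both states. Against wt in 3′RR-deficient cells, Apex1 became -0.05 by total counts, -0.1 without the GC trend, -0.04 with no filter, -0.01 under the stricter filter and -0.01 with only the genotypes compared, Trp53bp1 -0.02 by total counts, and Ung -0.15 and Rif1 0.05 without the GC trend. Mad2l2 in Eμ-deficient cells became -0.11 by spike-in scaling. Of the ratios of single libraries, 3′RR-deficient over wt Msh6 in resting cells became -0.01 by total counts and -0.07 by spike-in scaling, and spike-in scaling also gave 0.34 for Apex1 in 3′RR-deficient over wt LPS cells and -0.4 for Apex2 and -0.01 for Mad2l2 in LPS over resting wt cells. The causes of these changes were not tested. The genotype term pairs the libraries of a genotype, and without it 5421 genes and 6 of the 8 were called for LPS.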

Other observations

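The 3 pathway genes that fell after LPS were from different steps. Dclre1c, which encodes the nuclease Artemis that opens hairpin ends in V(D)J recombination, was at 46.3, 43 and 55.8 CPM in wt, Eμ-deficient and 3′RR-deficient resting cells and at 14.1, 14.5 and 12.6 CPM after LPS. It fell by 1.81 on the log2 scale (SE 0.24, edgeR adjusted p = 0.000552), and the groups did not overlap. Hmces, whose product binds abasic sites in single-stranded DNA, was at 22.1, 12.4 and 23.4 CPM before and 4.97, 11.7 and 9.44 CPM after LPS (edgeR adjusted p = 0.0337), with the Eμ-deficient pair nearly level. Ptbp2, an RNA-binding protein, was at 44.2, 48.4 and 35.6 CPM before and 35.5, 24.7 and 15.2 CPM after LPS (edgeR adjusted p = 0.027), with the wt LPS library close to the lowest resting one.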
